A study of Mus musculus with 4 samples.

Results

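The genes examined here make the enzymes that turn arachidonic acid into lipoxygenase products, leukotrienes and prostanoids. They were taken by name: *Alox15*, *Alox5*, *Alox5ap*, *Lta4h*, *Ltc4s*, *Ptgs1*, *Ptgs2*, *Ptges*, *Ptgis* and *Hpgds*. All 10 stood in the table of 18364 genes. RNA had been sequenced from large peritoneal macrophages (LPMs), which reside in the peritoneal cavity and were double-sorted as F4/80+ MHCII- CD102+ cells from C57BL/6 mice aged 8 weeks. There were 2 libraries labelled wild type (WT) and 2 labelled Rxra-/- (Rxra-KO), and the comparison asks how loss of the nuclear receptor RXRα changes gene expression in LPMs. The study describes the Rxra-KO mice as LysM Cre+ Rxra fl/fl and their controls as Rxra fl/fl littermates without Cre, so that controls also carry the floxed alleles. The Cre recombinase is expressed from the *Lyz2* (LysM) locus, which is active in myeloid cells in general and is not particular to LPMs. Whether a library came from 1 animal or from pooled animals is not given in the sources used here. The spread between libraries may therefore be technical. The limma p-values rest mainly on a variance trend over all genes and only slightly on a gene's own spread.

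Libraries held 629030 to 1047021 reads, with 1 shallower and 1 deeper library in each group. The targeted gene went against the labels: WT libraries had 20 and 28 *Rxra* reads but those labelled Rxra-KO had 33 and 77, and the log2 fold change was 0.99 ± 0.36 (standard error; limma adjusted *p* = 0.183). Values per gene do not show whether these reads came from the deleted exons, and all directions below are between libraries as labelled. Of 8 LPM markers, 7 were called lower in Rxra-KO, with log2 fold changes from -2.65 to -0.88, among them *Gata6* (-2.32) and *Icam2* (-1.25), which encodes the CD102 of the sort, and none of the 8 was absent from any library. *Timd4* was not called (log2 fold change -0.80, limma adjusted *p* = 0.157). This LPM list was chosen with earlier results of these data known. The summed normalised read count of the 8 markers was 35161 and 36765 in WT and 17619 and 19616 in Rxra-KO. Most of that sum was *Prg4*, at 28429 and 29683 in WT and 15129 and 16567 in Rxra-KO. The 7 genes that the study names for small peritoneal macrophages (SPMs), the monocyte-derived macrophages of the cavity, summed to 360 and 105 in WT and to 4324 and 5802 in Rxra-KO, a list which is not independent of these libraries because the study chose it on them. In a bulk sample, fewer cells of one kind and less RNA per cell cannot be told apart. Markers that differ between the groups necessarily go along with every fall and rise described below, whatever the gene. The part of these markers in those results was not tested.

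Arachidonic acid is freed from membrane phospholipids by phospholipases and then takes separate routes. Lipoxygenases add oxygen directly: ALOX15 gives hydroperoxy fatty acids, and ALOX5, helped by its activating protein FLAP (*Alox5ap*), gives leukotriene A4, which LTA4H turns into leukotriene B4 and LTC4S into the cysteinyl leukotrienes. Cyclooxygenases, the constitutive PTGS1 and the inducible PTGS2, give prostaglandin H2, from which PTGES makes prostaglandin E2, PTGIS prostacyclin and HPGDS prostaglandin D2. Mouse resident peritoneal macrophages are a textbook source of ALOX15 activity and of prostacyclin.

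Of these genes, 3 fell in libraries with the Rxra-KO label: *Ptgis* by 8.41-fold, *Alox15* by 3.03-fold and *Ptgs1* by 2.06-fold, as ratios of group means. None of the 10 was called higher. The call required an adjusted p under 0.05 with limma over all 18364 genes and a log2 fold change of 0.6 or more in size. By this rule 3 of 10 members were called, all lower, where 2.29% of all genes were called and 0.969% were called lower. Of the other members, 6 were not called and *Ptgs2* was at the limit of detection. The median log2 fold change of the 10 was -0.32, or -0.50 over the 9 above that limit, against 0.02 over all genes. The groups did not overlap for 5 members, all lower in Rxra-KO, where 38.1% of all genes had groups that did not overlap and 19.3% were so with Rxra-KO lower. These shares describe a short list and carry no test of their own.

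**Figure D1:**
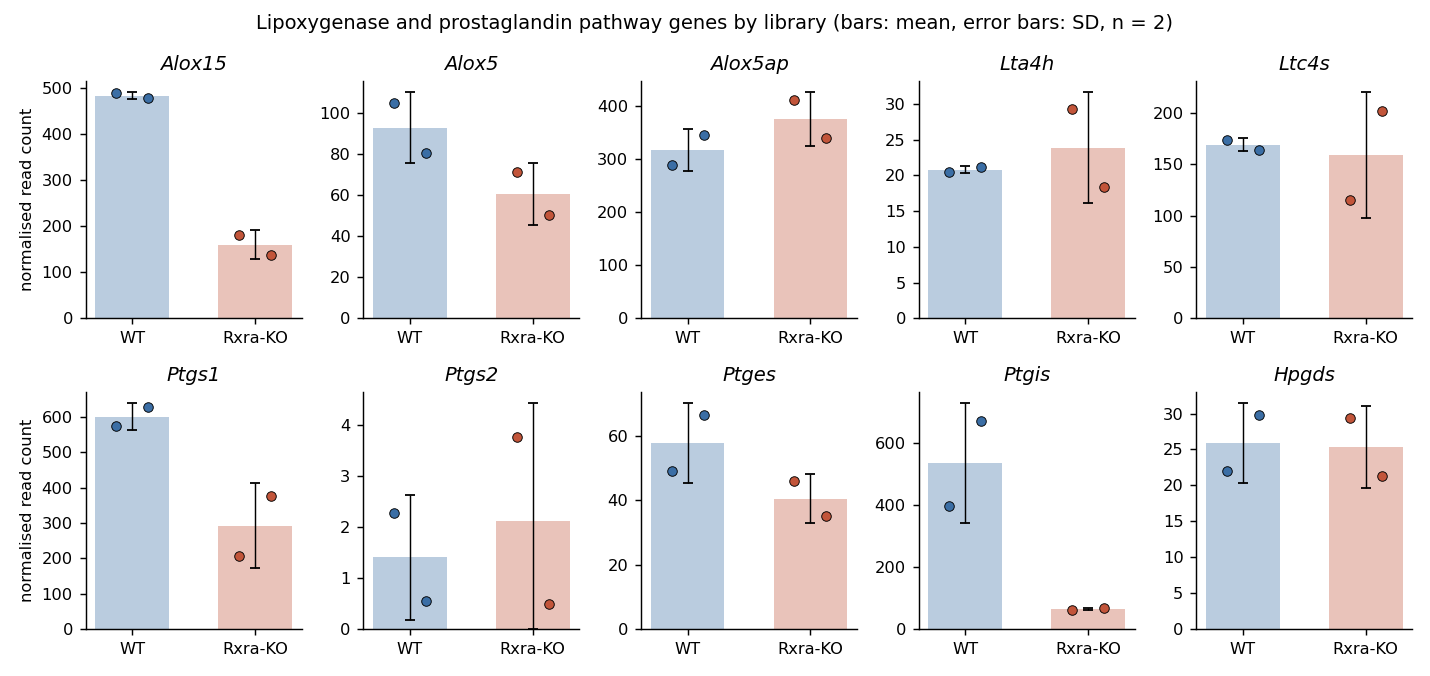
Normalised read count (vertical axis, from 0) of each of the 10 genes in each WT and Rxra-KO library; points are libraries, bars are means and error bars are SD (n = 2), drawn down to 0 at most. *Ptgis*, *Alox15* and *Ptgs1* sit clearly lower in Rxra-KO, *Ptgs2* stays below 4 in every library, and for *Alox5ap*, *Lta4h*, *Ltc4s* and *Hpgds* the groups overlap.

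*Alox15* encodes the lipoxygenase for which these macrophages are best known. Its normalised read count was 488 and 478 in the WT libraries and 181 and 138 in the Rxra-KO libraries, from 322, 440, 120 and 138 reads. The WT libraries lay close together, and both Rxra-KO libraries lay far below them. The WT mean was 483 ± 7.37 and the Rxra-KO mean 159 ± 31.0 (SD, n = 2), which gave a log2 fold change of -1.61 with a standard error of 0.24 (limma adjusted *p* = 2.98e-08). Without any 1 library the log2 fold change stayed between -1.80 and -1.41 and the call held. It did not hold after quantile normalization (limma adjusted *p* = 0.0533) or in limma without a mean-variance trend (adjusted *p* = 0.472).

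The leukotriene genes showed no call. *Alox5*, the first enzyme of the route, had normalised read counts of 105 and 80.8 in WT and 71.5 and 50.2 in Rxra-KO. The Rxra-KO libraries were below both WT libraries, but the gap between the groups was smaller than the spread within either. The log2 fold change was -0.61, with a 95% interval from -1.22 to -0.0044 before adjustment and a limma adjusted *p* of 0.489.

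*Alox5ap*, the membrane protein that presents arachidonate to ALOX5, had 290 and 346 in WT and 412 and 340 in Rxra-KO. The groups overlapped, and the log2 fold change of 0.24 had a 95% interval from -0.21 to 0.70 (limma adjusted *p* = 0.837). A fall of the size seen for *Alox15* or *Ptgis* lies outside that interval, which rests mainly on the variance trend over all genes. *Ltc4s*, the synthase of leukotriene C4, had 173 and 164 in WT and 115 and 202 in Rxra-KO. The Rxra-KO libraries stood on either side of the WT pair, and the log2 fold change of -0.14 had a 95% interval from -0.66 to 0.37 (limma adjusted *p* = 0.954). *Lta4h*, the hydrolase for leukotriene B4, was measured with only 13 to 19 reads per library, at 20.4 and 21.2 in WT and 29.4 and 18.4 in Rxra-KO. Its log2 fold change of 0.15 had an interval from -0.78 to 1.09, so changes within that range are not excluded at this depth.

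The cyclooxygenases were unlike in level. *Ptgs1*, the constitutive cyclooxygenase, had normalised read counts of 575 and 629 in WT and 207 and 378 in Rxra-KO, from 379, 579, 137 and 380 reads. Both Rxra-KO libraries were lower than both WT libraries, but they also differed widely from each other. The WT mean was 602 ± 38.2 and the Rxra-KO mean 292 ± 121 (SD, n = 2), which gave a log2 fold change of -1.10 with a standard error of 0.23 (limma adjusted *p* = 0.00032). The call rested on Rxra-KO replicate 1, without which the log2 fold change was -0.67 (limma adjusted *p* = 0.295), and it was also lost after quantile normalization (adjusted *p* = 0.26) and without a trend (adjusted *p* = 0.592). *Ptgs2*, the inducible cyclooxygenase, had 1 and 0 reads in the WT libraries against 2 and 0 in the Rxra-KO libraries. All 4 libraries were at or under the limit of 3 reads, which corresponds to normalised read counts between 2.98 and 4.54, so no fold is given and no level can be set below that limit.

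Prostacyclin synthase changed most among the enzymes that act on prostaglandin H2. *Ptgis* had normalised read counts of 397 and 671 in WT and 61.0 and 66.0 in Rxra-KO, from 262, 618, 40 and 66 reads. The WT libraries differed from each other, but the lower of them was still far above both Rxra-KO libraries, which were nearly equal. The WT mean was 534 ± 193 and the Rxra-KO mean 63.5 ± 3.58 (SD, n = 2), or 11.9% of it, which gave a log2 fold change of -3.00 with a standard error of 0.25 (limma adjusted *p* = 2.11e-22). Leaving out any 1 library kept the log2 fold change between -3.38 and -2.63, and the call was lost only in limma without a trend (adjusted *p* = 0.356) among the alternatives run.

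The neighbouring synthases did not show such a change. *Ptges*, the microsomal synthase of prostaglandin E2, had 49.2 and 66.7 in WT and 45.9 and 35.3 in Rxra-KO. Its groups did not overlap, although by a small margin, and the log2 fold change of -0.50 had a 95% interval from -1.19 to 0.20 (limma adjusted *p* = 0.722). *Hpgds*, the synthase of prostaglandin D2, had 22.0 and 29.8 in WT and 29.4 and 21.4 in Rxra-KO. The groups overlapped almost completely, with means of 25.9 ± 5.57 and 25.4 ± 5.66 (SD, n = 2) and a log2 fold change of -0.030 with an interval from -0.91 to 0.85 (limma adjusted *p* = 0.994).

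**Figure D2:**
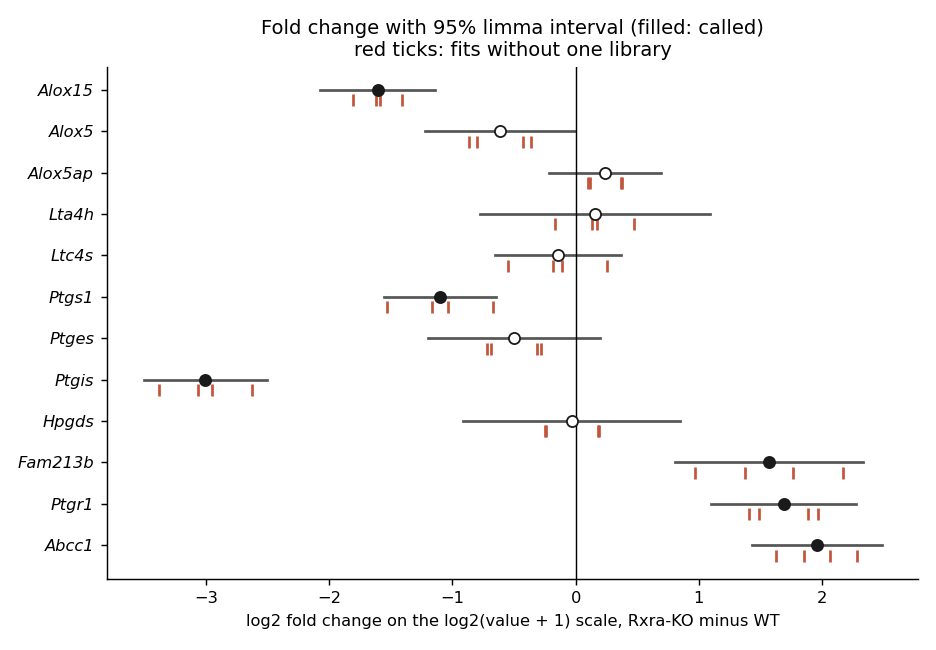
Log2 fold change of Rxra-KO over WT (horizontal axis, log2(value + 1) scale) for 9 members and for 3 called genes of the wider list, with 95% limma intervals before adjustment for multiple testing; filled points were called and red ticks are fits without 1 library. *Ptgis*, *Alox15* and *Ptgs1* lie left of 0 and *Fam213b*, *Ptgr1* and *Abcc1* right of 0, in the fits without 1 library too, whereas the tick of *Ptgs1* nearest 0 is at -0.67; *Ptgs2* and *Hpgd* are left out because libraries were at the limit of detection.

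Levels between genes were compared per kilobase of the longest coding transcript in GENCODE M21, on the linear scale. In WT, 5 genes were close together at the top: *Alox5ap* at 254 ± 31.4 normalised reads per kilobase, *Ptgis* at 254 ± 91.8, *Ltc4s* at 236 ± 8.90, *Ptgs1* at 210 ± 13.3 and *Alox15* at 201 ± 3.06 (SD, n = 2). Of genes next to each other in this order, only *Ltc4s* and *Ptgs1* had ranges of libraries that did not overlap. Further apart in the order, *Alox5ap* lay above all WT libraries of *Ptgs1* and *Alox15*, and *Ltc4s* above those of *Alox15*. The place of *Ptgis* differed between the WT libraries: at 318 normalised reads per kilobase it was the highest of the 5 in replicate 2, and at 189 the lowest of the 5 in replicate 1, so its range overlapped with all of the others. Next came *Alox5* at 33.0 ± 6.12, *Ptges* at 15.9 ± 3.39, *Lta4h* at 10.2 ± 0.249 and *Hpgds* at 7.45 ± 1.60, each below all libraries of the gene before it. In Rxra-KO, *Alox5ap* at 301 ± 40.5 and *Ltc4s* at 222 ± 85.9 stayed at the top with overlapping libraries. *Ptgs1* followed at 102 ± 42.1 and *Alox15* at 66.2 ± 12.9, which overlapped with each other, and *Ptgis* at 30.1 ± 1.70 lay below all libraries of both. In WT, *Alox15*, *Ptgs1* and *Ptgis* stood at percentiles 98.6, 99.0 and 98.8 of all genes by mean value without regard to length.

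Upstream of *Ptgs1*, a hexamer bound by RXR and its partners was looked up as a description. The hexamer AGGTCA is the core of many nuclear receptor binding sequences, and RXR dimers bind pairs of it. The 250 bases before the start were taken from the RefSeq promoter table of GRCm38.p6, which held 7 of the 10 members, all but *Alox15*, *Alox5ap* and *Ptgis*. On either strand, AGGTCA was in 0 of the 7 member windows and in 14.0% of all 32851 windows, and pairs of it in the same direction with 1 to 5 bases between them were in none of the 7 and in 11, 3, 2, 5 and 3 of all windows, by increasing spacing. Only these exact letters were searched, and variants of the hexamer were not. A window without them therefore says nothing of binding there or elsewhere. The windows of *Ptgs1*, the called member that is in the table, and of *Hpgd* and *Prxl2b*, called genes of the wider list described next and chosen for display after their values were seen, are shown 5′ to 3′ on the strand of the gene, with the hexamer in capitals where present.
Ptgs1, chr2:36230176-36230425, + strand: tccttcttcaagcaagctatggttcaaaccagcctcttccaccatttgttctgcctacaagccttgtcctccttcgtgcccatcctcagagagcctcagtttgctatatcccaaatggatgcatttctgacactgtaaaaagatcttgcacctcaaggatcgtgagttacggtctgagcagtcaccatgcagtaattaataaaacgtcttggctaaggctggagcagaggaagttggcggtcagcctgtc
Hpgd, chr8:56294302-56294551, + strand: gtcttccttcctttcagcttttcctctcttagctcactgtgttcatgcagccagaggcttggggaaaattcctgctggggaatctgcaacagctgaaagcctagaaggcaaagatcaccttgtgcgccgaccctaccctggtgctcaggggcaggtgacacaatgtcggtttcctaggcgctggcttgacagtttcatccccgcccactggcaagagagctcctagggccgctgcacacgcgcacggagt
Prxl2b, chr4:154899044-154899293, - strand: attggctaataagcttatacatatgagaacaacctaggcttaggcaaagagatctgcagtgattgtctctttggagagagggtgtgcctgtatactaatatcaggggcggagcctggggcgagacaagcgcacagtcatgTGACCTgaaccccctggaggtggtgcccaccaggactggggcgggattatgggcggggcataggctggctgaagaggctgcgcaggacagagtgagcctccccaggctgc
Of these, the *Prxl2b* window held the hexamer, on the reverse strand as TGACCT. The window of *Ptgr1*, a further called gene of the wider list, was also searched and did not hold it.

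To see the rest of the route, 60 further genes of arachidonate release, eicosanoid conversion, breakdown, transport and reception were followed, of which 56 were in the table and 11 could not be given a fold at the limit of 3 reads. The same test called 4 of the 56, all higher in Rxra-KO, where 1.32% of all genes were called higher. They were *Hpgd*, *Ptgr1*, *Abcc1* and *Fam213b*, and 3 of them belong to breakdown and transport. The median log2 fold change of the 56 was -0.031, or 0.012 with genes at the limit of detection set to their bound or left out.

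*Hpgd* encodes the dehydrogenase that begins the inactivation of prostaglandins. No read was found in either WT library, while the Rxra-KO libraries had 16 and 13, or normalised read counts of 24.8 and 13.4. Against 3 reads per library the gene was at least 4.75-fold higher (limma adjusted *p* = 0.00107). *Ptgr1* encodes a reductase that acts after HPGD and also inactivates leukotriene B4. Its normalised read count was 53.7 and 40.7 in the WT libraries against 126 and 186 in the Rxra-KO libraries, both of which lay well above the higher WT library. The log2 fold change was 1.69 ± 0.30 (standard error; limma adjusted *p* = 8.77e-06).

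*Abcc1* encodes a transporter that exports leukotriene C4 among other conjugates. Values of 88.6 and 55.9 in the WT libraries stood against 257 and 297 in the Rxra-KO libraries, with no overlap. The log2 fold change was 1.96 ± 0.27 (standard error; limma adjusted *p* = 1.42e-09). *Fam213b*, now named *Prxl2b*, encodes a prostaglandin F synthase. Values of 32.6 and 13.6 in the WT libraries stood against 56.5 and 74.0 in the Rxra-KO libraries, so the groups did not overlap although the WT libraries differed. The log2 fold change was 1.57 ± 0.39 (standard error; limma adjusted *p* = 0.00531). The call of *Fam213b* was lost without WT replicate 2, where the log2 fold change was 0.97 (limma adjusted *p* = 0.416), without Rxra-KO replicate 1 (adjusted *p* = 0.0504), without Rxra-KO replicate 2 (adjusted *p* = 0.276) and with DESeq2 (adjusted *p* = 0.217). That of *Hpgd* was lost without Rxra-KO replicate 1 (limma adjusted *p* = 0.162) and when genes needed 10 or more in 2 libraries (limma adjusted *p* = 0.0763).

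**Figure D3:**
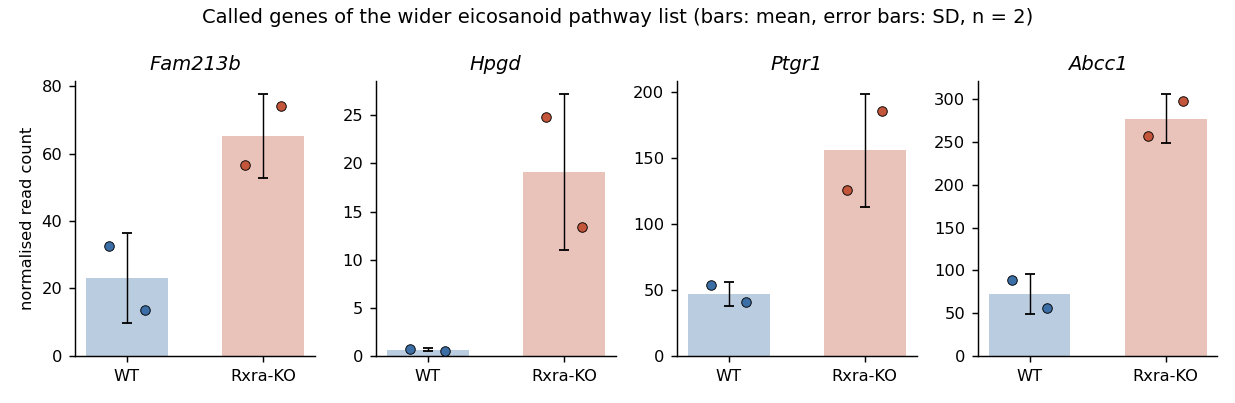
Normalised read count (vertical axis, from 0) of the 4 called genes of the wider list in each WT and Rxra-KO library; points are libraries, bars are means and error bars are SD (n = 2). In each panel both Rxra-KO libraries lie above both WT libraries; the WT points of *Hpgd* stand for 0 reads, to which the deposited values add 0.5 read.

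The rest of the list held no call. Of 17 genes that release or take up arachidonate, 14 were above the limit of detection, of which 6 had a positive and 8 a negative log2 fold change, and none was called. *Acsl4*, which attaches coenzyme A to arachidonate, had a WT mean of 274 ± 90.7 and an Rxra-KO mean of 226 ± 10.5 (SD, n = 2, limma adjusted *p* = 0.865). *Daglb*, which forms the arachidonate precursor 2-arachidonoylglycerol, had 115 ± 13.4 and 173 ± 3.12 (limma adjusted *p* = 0.362). Its exons share 2309 bases with *Rac1* in GENCODE M21, which went from 104 and 168 in WT to 222 and 337 in Rxra-KO, and the counting is not stated to use strand, so the value of *Daglb* is uncertain. Among the 5 other lipoxygenases, *Alox8* had 16 and 28 reads in the WT libraries against 13 and 36 in the Rxra-KO libraries, *Alox12* had means of 16.8 ± 3.03 and 15.1 ± 7.48, and neither was called (limma adjusted *p* = 0.994 and 0.969).

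Of 7 genes of leukotriene conversion, *Dpep2*, a dipeptidase that turns leukotriene D4 into E4, had a WT mean of 154 ± 37.3 and an Rxra-KO mean of 141 ± 54.5 (SD, n = 2, limma adjusted *p* = 0.944). *Ggt5*, which turns leukotriene C4 into D4, had 1 and 11 reads in the WT libraries against 12 and 14 in the Rxra-KO libraries (limma adjusted *p* = 0.437). Among the other prostanoid synthases, *Ptges3*, a cytosolic prostaglandin E synthase and co-chaperone, had 366 ± 58.8 and 418 ± 37.6 (limma adjusted *p* = 0.896). *Tbxas1*, thromboxane synthase, had 112 ± 30.7 and 144 ± 38.6 (limma adjusted *p* = 0.762). For both synthases the groups overlapped.

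In breakdown and transport, *Ptgr2*, a relative of *Ptgr1* with a similar reductase activity, had 47.7 and 67.8 in WT and 71.5 and 43.2 in Rxra-KO (limma adjusted *p* = 0.994). *Ephx1*, an epoxide hydrolase, had means of 17.3 ± 2.26 and 23.6 ± 10.2 (SD, n = 2, limma adjusted *p* = 0.919). None of 14 eicosanoid receptor genes was called. *Ptgir*, the receptor of prostacyclin, had 35.6 and 52.6 in the WT libraries against 23.3 and 80.9 in the Rxra-KO libraries, which gave a log2 fold change of 0.012 with an interval from -0.72 to 0.75 (limma adjusted *p* = 0.994). The Rxra-KO libraries were the lowest and the highest of the 4. *Ptger4*, a receptor of prostaglandin E2, had 85.1 ± 29.3 and 69.9 ± 36.4 (limma adjusted *p* = 0.833).

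**Figure D4:**
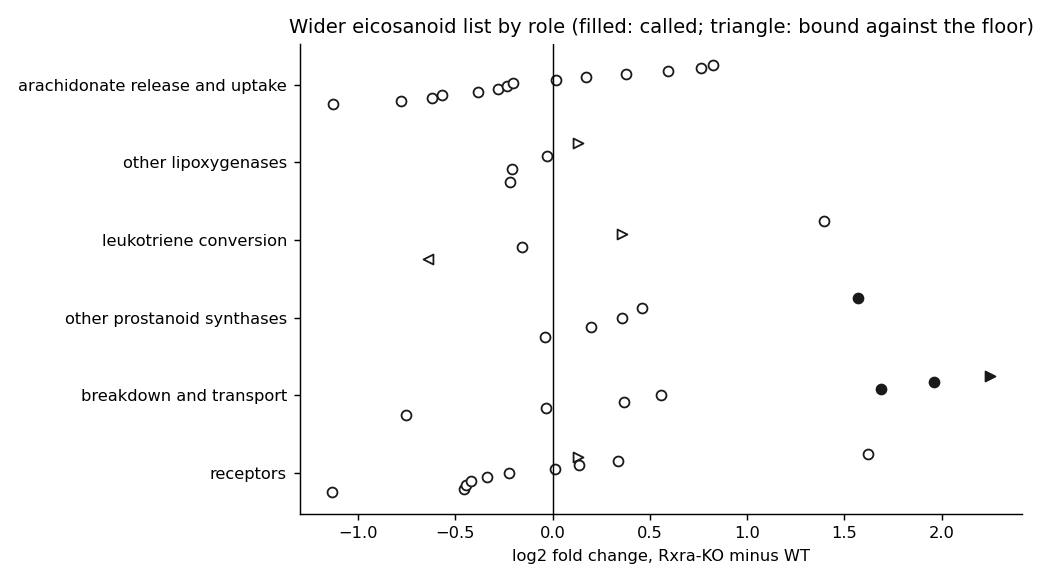
Log2 fold change of Rxra-KO over WT (horizontal axis) for the 45 genes of the wider list with a measurable fold, in 6 roles (vertical axis); filled symbols were called and triangles are bounds against 3 reads per library, pointing away from 0. The 4 filled symbols all lie right of 0, 3 of them in breakdown and transport, while open symbols lie on both sides of 0.

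Other cells of the cavity also carry these transcripts, mast cells and platelets in particular. The cells had been double-sorted on F4/80, MHCII and CD102, and how far this removed other cells was not tested. Eosinophils are also gated as F4/80+ and MHCII- in the study. Markers of other cells were summed in each library. The 9 mast cell markers in the table summed to 43.9 and 41.2 in WT and 40.7 and 29.8 in Rxra-KO, the 8 platelet markers to 34.8 and 20.6 against 22.6 and 35.8, and the 5 eosinophil markers to 107 and 97.6 against 82.8 and 100.3. The platelet and eosinophil sums overlapped between groups and the mast cell sums were slightly lower in Rxra-KO. None of these markers was called, and none was at 0 reads in every library. Most of the eosinophil sum was *Il5ra*, at 90.1 and 76.5 in WT against 65.5 and 76.0 in Rxra-KO. *Cpa3* of the mast cell list and *Prg2* of the eosinophil list had no entry. The 7 mesothelial markers summed to 68.1 and 94.4 in the WT libraries against 57.2 and 76.5 in the Rxra-KO libraries, and the 4 fibroblast markers to 43.9 and 40.1 against 40.7 and 27.8. *Lrrn4* was most of the mesothelial sum in WT, at 58.3 and 76.5, and had 47.4 and 32.3 in Rxra-KO. The 6 general macrophage markers summed to 20307 and 18122 in the WT libraries against 10098 and 10651 in the Rxra-KO libraries. Most of that sum was *Lyz2*, the locus that carries the Cre, at 14263 and 11591 against 6386 and 6230. Only the Rxra-KO mice carry the Cre in this locus, and its own part in the *Lyz2* values was not tested. *Lyz2*, *Itgam* and *Emr1* were called lower. *Emr1*, now named *Adgre1*, encodes the F4/80 of the sort and was at 714 and 545 in WT against 404 and 279 in Rxra-KO. *Csf1r*, *Cd68* and *Mertk* were not called and had higher values in both Rxra-KO libraries than in either WT library. Neutrophil, B cell and T cell sums stayed between 47.7 and 123 in every library. *Cxcr2* was most of the neutrophil sum, at 105 and 89.5 in WT against 89.6 and 102 in Rxra-KO, and *S100a8*, *S100a9* and *Ly6g* had no entry. The 5 dendritic cell markers summed to 40.9 and 41.2 in WT against 90.3 and 109 in Rxra-KO, with 1 of them, *Cd209a*, called higher at 22.0 and 14.6 against 65.5 and 80.0. *Xcr1* was at 15.9 and 9.22 against 12.8 and 13.4, and *Clec9a* at 2.27 and 7.05 against 2.26 and 1.49. What part any of these cells had in the results was not tested.

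**Figure D5:**
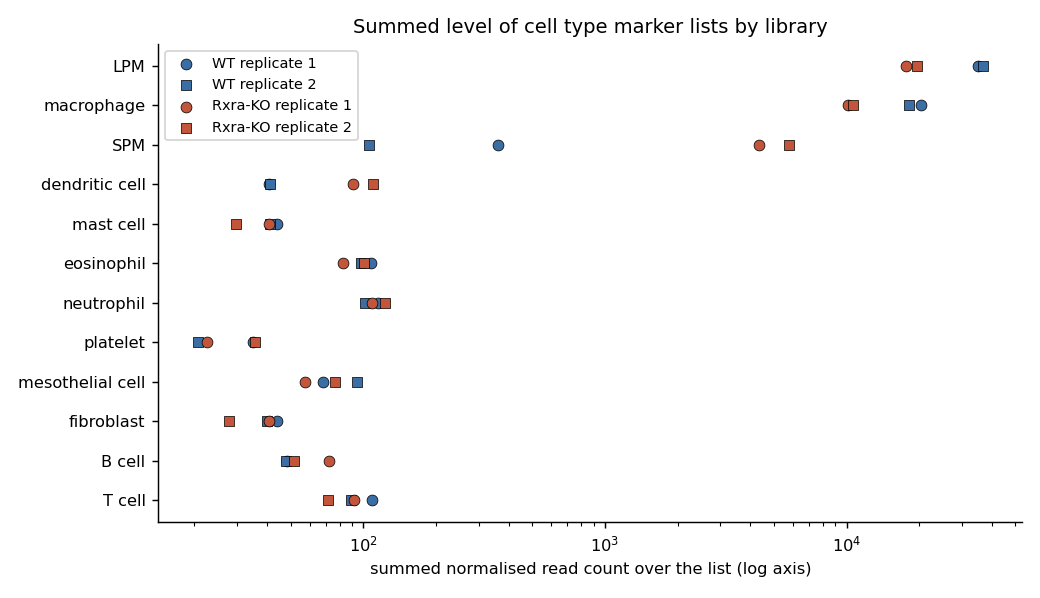
Summed normalised read count of each marker list (horizontal log axis, without the 0.5 read that deposited values add) in the 4 libraries; colours are groups and symbols are replicates. LPM and general macrophage sums are lower in both Rxra-KO libraries. *Prg4* makes up most of the LPM sum and *Lyz2*, the locus that carries the Cre, most of the macrophage sum. SPM and dendritic cell sums are higher in both, with *Cd209a* making up most of the dendritic cell sum in Rxra-KO. Mast cell, eosinophil, platelet and the other sums stay between 20.6 and 123 in every library. *Il5ra* makes up most of the eosinophil sum and *Cxcr2* most of the neutrophil sum.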

How the data were processed

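RNA of sorted LPMs was sequenced by the authors after amplification of full-length cDNA with a SMART-Seq v4 kit, without molecular identifiers, so limits of detection cover counting error only. Per the study's methods and the submitters' processing notes, transcripts were quantified with Kallisto 0.43.0, summarised to genes and scaled by TMM for limma. A human reference, GRCh38, is named for these mouse libraries, so the reference was not settled and no gene coordinates are taken from the table. The study states that samples which did not cluster with their group were left out. The authors deposited a normalised read signal, reads plus 0.5 scaled to a normalised library size. From it whole reads were recovered for 100% of values (tolerance 0.01 read), and 1 read was worth 0.993 to 1.51.

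Each gene was fitted with limma 3.58.1 (R 4.3.3) on log2(value + 1) over the 4 libraries, with a mean-variance trend and without covariates. This scale understates the change of low genes. Two-sided p-values were adjusted by Benjamini and Hochberg's method across all 18364 genes. Genes needed a value of 1 or more in 2 libraries, which removed 0 genes. With 2 libraries against 2, an exact permutation test cannot go below *p* = 0.333, so adjusted p-values depend on a variance estimate that limma moderates with all genes. In that estimate, the trend over all genes had a median of 227 degrees of freedom against 2 from a gene's own libraries. Standard errors therefore reflect a gene's own replicate spread only slightly. The limit of detection was set at 3 reads in each library of a group. edgeR 4.0.16 and DESeq2 1.42.0 on recovered reads were alternatives, and scripts were tested on simulated data. Replicates are numbered as in the sample titles.

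The members, the lists and the tests were chosen with earlier results of these data known. Text names all members, every called gene of the wider list and the 2 most abundant genes not called in each of its roles. *Ltb4r1*, *Mgst2*, *Ptgds* and *Akr1b3* were not matched and are not reported here. *Prxl2b*, *Adgre1* and *Siglecf* were matched through older symbols. In GENCODE M21, exons of *Alox5ap*, *Ltc4s*, *Ptgs1* and *Ptgis* share 189, 268, 148 and 156 bases with other transcripts that have no entry of their own in the values used here, and the counting is not stated to use strand.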

Additional observations from a re-analysis of the deposited data

How the results depend on the processing

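Among 17 alternatives, removing the filter repeated the main fit, and the stricter limit of an adjusted p under 0.01 reused it. The 3 calls among the members held in 14 of the 17. Their number was 1 after quantile normalization (*Ptgis*), 0 with limma without a mean-variance trend (2 members at an unadjusted p under 0.05, and 3 calls with edgeR, DESeq2 and voom), and 2 to 3 with 1 library left out. Over all genes, the same settings gave 43 and 0 calls (1579 at an unadjusted p under 0.05) against 421, edgeR on recovered reads gave 446 and DESeq2 235, and leaving out 1 library gave 236 (without WT replicate 2; 244 without Rxra-KO replicate 1) to 377. In the wider list, the 4 calls became 0 after quantile normalization, 0 without a trend (6 genes at an unadjusted p under 0.05 in both), 2 with DESeq2, which gave *Hpgd* no adjusted p, 4 with edgeR, and 2 (without Rxra-KO replicate 1) to 4 with 1 library left out. The cause was not tested. None of the 7 called genes named in the text changed direction in the alternatives that gave it a value.

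Among the named genes, the directions that turned were of genes that were not called. *Alox8*, at -0.031, was 0.044 with edgeR, 0.018 with edgeR on DESeq2 size factors, 0.0045 with DESeq2 and 0.012 with voom, and *Ptgir* was -0.036 after quantile normalization. With 1 library left out, log2 fold changes ranged from -0.17 to 0.48 for *Lta4h*, -0.55 to 0.26 for *Ltc4s*, -0.25 to 0.19 for *Hpgds*, -0.58 to 0.11 for *Acsl4*, -0.71 to 0.27 for *Alox12*, -0.43 to 0.37 for *Alox8*, -0.56 to 0.24 for *Dpep2*, -0.39 to 0.33 for *Ptgr2*, -0.070 to 0.80 for *Ephx1*, -0.89 to 0.21 for *Ptger4* and -0.86 to 0.89 for *Ptgir*.

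Whether replicate numbers pair the libraries was not settled. Deviations of the libraries numbered 1 from their group means had a Pearson's r of 0.063 across 10049 genes. In both groups the library numbered 1 was the shallower, with 652542 reads in WT and 629030 in Rxra-KO. With the replicate block, 540 genes were called over all genes against 421 without it, with 3 among the members and 4 in the wider list. Removing the filter changed nothing, since it removed no gene. Depth limits what can be said of *Ptgs2*, *Hpgd*, *Ggt5*, *Alox12*, *Ephx1*, *Lta4h* and *Hpgds*.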
